A study of Homo sapiens with 8 samples.

Results

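The CHD family of chromatin remodelers comprises CHD1 to CHD9, and all 9 genes were found in the count tables among 57992 genes by matching Ensembl identifiers to GENCODE symbols. The members were set by name and not by their measured values, though with earlier results of these data known. Their transcripts were measured in 8 RNAseq samples of RKO, an established human colon carcinoma line in which, per the study's text, beta-catenin signaling is intact. Control siRNA was given to 4 samples and A20 siRNA, directed at the transcript of TNFAIP3, to 4. Every sample also received recombinant human wnt3a at 50 ng/mL for 24 hours, so no sample shows the cells without wnt3a. The study's text speaks of a specific siRNA against A20, so the loss of A20 and any other effect of that siRNA cannot be told apart here. A sample is a bulk extract, in which a small change in all cells and a larger one in some of them cannot be told apart.

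CHD proteins carry paired chromodomains, which read histone tails, beside an SNF2-type ATPase that slides, spaces or evicts nucleosomes. CHD1 and CHD2 form one subfamily and act on transcribed chromatin. CHD3, CHD4 and CHD5 are alternative ATPases of the NuRD complex, which joins nucleosome remodeling to histone deacetylation. CHD6, CHD7, CHD8 and CHD9 form a further subfamily, in which CHD7 works at enhancers and CHD8 is known to bind beta-catenin and restrain its target genes.

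Total counts on genes ran from 21226451 to 34194273 per sample. Levels are in CPM, which relate a gene's reads to the TMM-adjusted total of its sample, where TMM corrects for differences in library composition. TNFAIP3, the targeted transcript, fell from 5.47 ± 0.388 CPM to 3.33 ± 0.215 (SD, n = 4 each; log2 fold change -0.71, adjusted p = 0.00258 by edgeR). Of 8 markers of colon epithelium, EPCAM, KRT8, KRT18 and CDX2 were measured at 12.6 CPM or more in every sample. CDH1, KRT19 and KRT20 had no read in any sample, and VIL1 had at most 1, so these defining markers were absent. Of 8 markers of blood, endothelium and fibroblasts, CD68 reached 35 reads and the others at most 4 in a sample. Some samples stood apart in the way their counts depended on transcript length. The correlation across 13316 genes between a sample's deviation from the gene mean and exonic length was 0.079 in control replicate 1 and from -0.20 to -0.11 in the other control samples. With A20 siRNA it was -0.082 in replicate 2 and from 0.069 to 0.18 in the others. Mitochondrial genes took 1.28% to 1.56% of the counts in control samples and 1.65% to 1.79% after A20 siRNA, so this share did not overlap between the groups, and its part in the results on CHD genes was not tested. CHD transcripts are long, each with at least 10094 exonic bases where the median tested gene has 4982, so results are also given after a correction for length and without those samples. With control replicate 1 and A20 siRNA replicate 2 both left out, the length correlation is negative in all control samples and positive in all A20 siRNA samples. With control replicate 1 alone left out, this correlation runs from -0.20 to -0.11 in controls and from -0.082 to 0.18 after A20 siRNA. The groups then do not overlap either. Fits without control replicate 1, alone or with A20 siRNA replicate 2, therefore cannot tell the siRNA from the length trend.

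All CHD genes except CHD5 were well covered. CHD4, the main NuRD ATPase, had 10766 to 17085 reads per sample, and CHD2 had 1082 to 1791. Levels of different genes were compared per kilobase of exonic length, taking all annotated exons of a gene together. On this per-length scale CHD4 was the most abundant member, at 40.0 ± 1.17 CPM per kb with control siRNA (SD, n = 4). Its mean over all 8 samples was above that of 92.0% of tested genes. CHD3, the other broadly expressed NuRD ATPase, followed at 24.5 ± 1.30 CPM per kb, and CHD1, which binds histone H3 methylated at the lysine of active promoters, at 20.4 ± 0.819. The ranges of these members over the 8 samples did not overlap. A group of 4 members lay lower and close together. CHD7 had 7.30 ± 0.221 CPM per kb, CHD9 had 6.76 ± 0.213, CHD6 had 6.16 ± 0.282 and CHD8 had 6.01 ± 0.118. Each of these 4 overlapped its neighbour in the order, although CHD7 was above CHD9, and CHD9 above CHD6, within each of the 8 samples. CHD2 lay below them at 2.18 ± 0.139 CPM per kb, and its mean over all 8 samples was above that of 33.9% of tested genes.

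**Figure D1:**
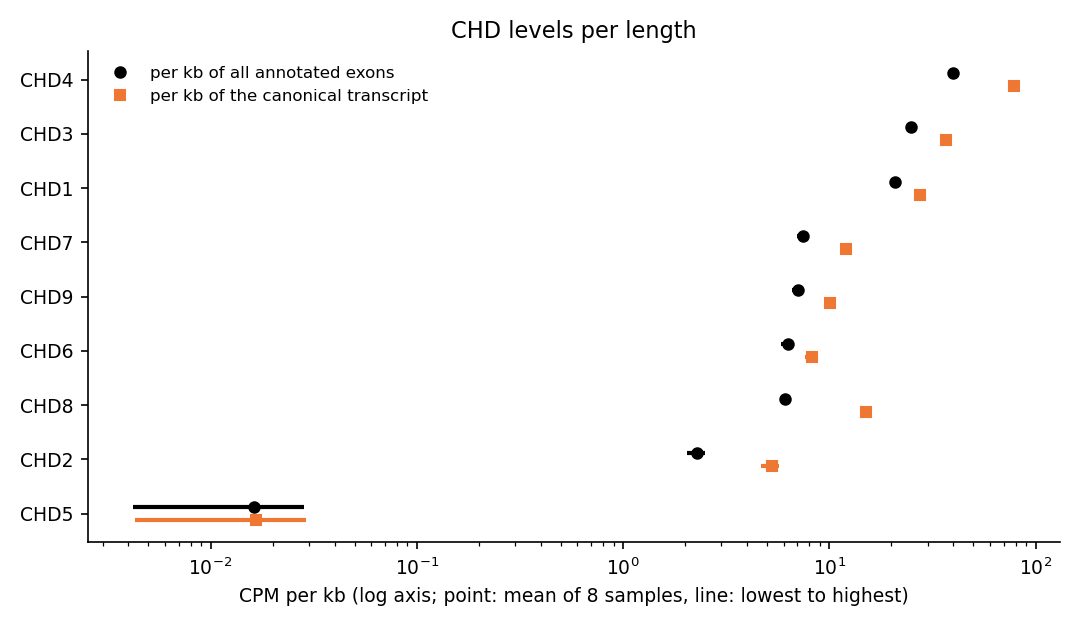
Levels of the 9 CHD transcripts in CPM per kb on a log axis, with the mean of 8 samples as a point and the lowest to highest sample as a line, for 2 definitions of length. CHD4, CHD3 and CHD1 lead under both, CHD8 moves from rank 7 to rank 4 with the canonical transcript, and CHD5 lies far below the rest.

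The order within the middle group depended on the length used. CHD8 has 20953 bases of annotated exons but a canonical transcript of 8467, and CHD2 has 21410 and 9350. With the length of the canonical transcript CHD8 had 14.9 ± 0.292 CPM per kb in control samples and ranked above CHD7 at 11.9 ± 0.360 (SD, n = 4 each). CHD4, CHD3 and CHD1 kept ranks 1 to 3, and CHD2 and CHD5 kept ranks 8 and 9. Which transcripts these cells use was not tested, since the tables hold counts per gene.

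Among the NuRD ATPases the balance was the same in both groups to within their spread. CHD4 made up 62.0% ± 1.02 of the summed per-length level of CHD3, CHD4 and CHD5 in control samples and 61.5% ± 0.772 after A20 siRNA (SD, n = 4 each). The samples ran from 60.6% to 63.1% and from 60.6% to 62.4%, so the groups overlapped. CHD5, known for its expression in neurons and testis, supplied at most 0.043% of that sum in a sample. The 9 genes together took 0.150% ± 0.00481 of all counts in control samples and 0.155% ± 0.00175 after A20 siRNA (SD, n = 4 each).

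CHD5 (ENSG00000116254.17, chromosome 1, 6101787 to 6180321, minus strand) was near the limit of detection. In control replicates 1 to 4 there were 2, 3, 5 and 1 reads, against 5, 5, 7 and 6 in A20 siRNA replicates 1 to 4. A level of 3 reads corresponds to between 0.0877 and 0.141 CPM at these depths, and CHD5 reached 0.287 CPM at most. Summed over the groups there were 11 and 23 reads, a depth-scaled ratio of A20 siRNA over control siRNA of 2.04, with an exact 95% interval from 0.954 to 4.63 that covers counting error only. In CPM the groups overlapped. The exact permutation test of log2(CPM + 0.1), taken as two-sided, gave p = 0.0857, where the smallest p that 4 samples against 4 allow is 0.0286. CHD5 did not pass the low-count filter and was left out of the test across genes, in which 8 of the 9 members took part.

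The comparison asks whether CHD transcripts differ after A20 siRNA in wnt3a-treated cells. It was made with edgeR's quasi-likelihood test on 13412 genes with Benjamini-Hochberg adjustment. Of the 8 tested members, CHD9 rose after A20 siRNA at an adjusted p-value under 0.05, and no member fell. Across all tested genes 0.634% were higher and 0.611% lower by the same rule. The members' log2 fold changes ran from -0.0019 for CHD4 to 0.14 for CHD2, with a median of 0.046 against 0.0027 for all tested genes. A log2 fold change above 0 was found for 7 of the 8 members, where 51.6% of all tested genes had one.

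**Figure D2:**
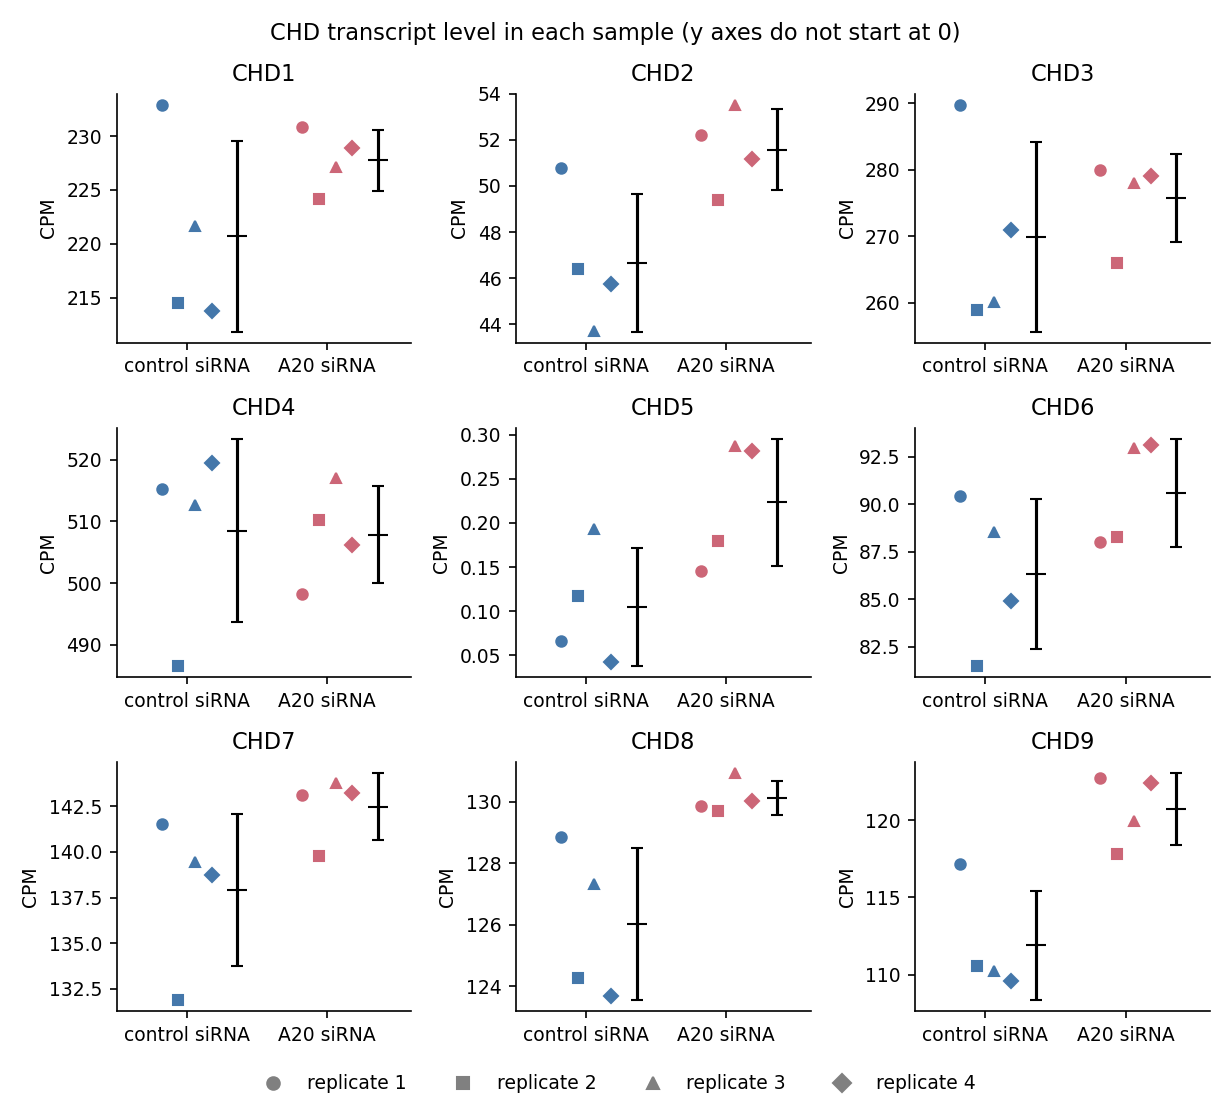
CPM of each CHD transcript in each sample, with replicates as symbols and the mean and SD (n = 4) as a bar beside each group. The y axes differ and do not start at 0. The groups are apart for CHD8 and CHD9, and control replicate 1 is the highest control sample for all tested members but CHD4.

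CHD9 (ENSG00000177200.15) lies on chromosome 16 of GRCh38 from 53054991 to 53329150, on the plus strand. Between 2592 and 4209 reads fell on it in each sample. In control replicates 1 to 4 there were 117.1, 110.6, 110.2 and 109.6 CPM, against 122.7, 117.8, 120.0 and 122.4 in A20 siRNA replicates 1 to 4. The groups did not overlap, with control replicate 1 just below A20 siRNA replicate 2. The means were 111.9 ± 3.53 and 120.7 ± 2.32 CPM (SD, n = 4 each), a difference of 7.90%. The log2 fold change was 0.11 (standard error 0.027, 95% interval 0.053 to 0.16, adjusted p = 0.0493). This adjusted p stood close to the threshold. After the length correction the log2 fold change was 0.074 (adjusted p = 0.104), and with length and GC content corrected together it was 0.087 (adjusted p = 0.0537). Without control replicate 1 it was 0.13 (adjusted p = 0.00344), and without control replicate 1 and A20 siRNA replicate 2 it was 0.14 (adjusted p = 0.00197). In both of these fits the length trend did not overlap between the groups. In the 8 fits that each left out 1 sample, the log2 fold change stayed between 0.096 and 0.13. CHD9 passed in 2 of them, without control replicate 1 and without A20 siRNA replicate 2, where 4.19% and 0.909% of all tested genes were higher, and its adjusted p reached 0.182 without control replicate 4.

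The bases before the first annotated start of CHD9 are shown because CHD9 was the member that passed. They are from RefSeq, GRCh38.p14, chr16:53054741-53054990, plus strand, and the capitals mark CpG pairs.
CHD9: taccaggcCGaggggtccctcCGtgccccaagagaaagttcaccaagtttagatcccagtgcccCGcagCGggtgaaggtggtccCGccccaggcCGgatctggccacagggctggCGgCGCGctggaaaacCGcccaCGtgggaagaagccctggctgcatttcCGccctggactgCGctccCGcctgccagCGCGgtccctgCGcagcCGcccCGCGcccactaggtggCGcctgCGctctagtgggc
This stretch of 250 bases holds 22 CpG pairs, against a median of 11 over 34941 start-site windows of the same length. On either strand it holds no CTTTGAA or CTTTGAT, the letters that TCF/LEF factors of the wnt pathway are known to bind, which occur in 3.82% and 2.27% of the windows. It also holds no TATAAA and no CCAAT box, which occur in 10.8% and 32% of them. These are matches of letters and draw nothing about binding in these cells. RefSeq lists 4 start-site windows for CHD9, which differ in these letters, and counts per gene do not show which was in use. The window that starts at 53130762 holds 33 CpG pairs and 2 matches of CCAAT, and the one at 53207715 holds 1 CpG pair and 1 match of CCAAT.

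CHD2 (ENSG00000173575.19, chromosome 15, 92886203 to 93027996, plus strand), a remodeler whose loss in people causes childhood epilepsy, had the largest log2 fold change of the 8 tested members. In control replicates 1 to 4 there were 50.8, 46.4, 43.7 and 45.7 CPM, against 52.2, 49.4, 53.5 and 51.2 in A20 siRNA replicates 1 to 4. Each A20 siRNA sample was above the control sample of the same number, but control replicate 1 lay above A20 siRNA replicate 2, so the groups overlapped. The means were 46.7 ± 2.98 and 51.6 ± 1.76 CPM (SD, n = 4 each). The log2 fold change of 0.14 (standard error 0.041, 95% interval 0.056 to 0.23) did not pass the threshold (adjusted p = 0.0838). It was 0.19 without control replicate 1 (adjusted p = 0.00437), where the groups are apart in length trend, and 0.094 after the length correction (adjusted p = 0.191). With no low-count filter CHD2 passed as well (adjusted p = 0.0105), where 1.09% of all genes in that fit were higher.

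CHASERR is a long noncoding RNA gene next to CHD2 on the same strand, known to restrain CHD2 expression in cis. It is no member of the family and was looked at after its overlap with CHD2 was seen, 121 exonic bases in the annotation used here. Its level was 21.2 ± 0.988 CPM in control samples and 21.4 ± 1.03 after A20 siRNA (SD, n = 4 each). The log2 fold change was 0.022, with a 95% interval from -0.078 to 0.12 (adjusted p = 0.870).

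CHD8 (ENSG00000100888.12, chromosome 14, 21385194 to 21456126, minus strand) also had groups that did not overlap. The level was 128.9, 124.3, 127.3 and 123.7 CPM in control replicates 1 to 4 and 129.8, 129.7, 130.9 and 130.0 in those with A20 siRNA. All A20 siRNA samples lay within a narrow range just above the highest control sample. With CHD9, groups were apart and higher after A20 siRNA for 2 of 8 tested members, against 3.71% of all tested genes. The means of CHD8 were 126.0 ± 2.48 and 130.1 ± 0.554 CPM (SD, n = 4 each). Its log2 fold change of 0.045 (standard error 0.023, 95% interval -0.0025 to 0.093) did not pass the threshold (adjusted p = 0.337). After the length correction it was -0.0013 (adjusted p = 0.986). CTNNB1, which encodes the beta-catenin that CHD8 binds, had 565.5 ± 6.77 CPM in control samples and 553.3 ± 4.84 after A20 siRNA (SD, n = 4 each; log2 fold change -0.032, adjusted p = 0.468).

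CHD4 (ENSG00000111642.14, chromosome 12, 6570082 to 6614524, minus strand) showed the smallest difference. The level was 515.3, 486.6, 512.7 and 519.4 CPM in control replicates 1 to 4 and 498.2, 510.2, 517.0 and 506.1 in those with A20 siRNA. The A20 siRNA samples all fell inside the range of the control samples. The means were 508.5 ± 14.9 and 507.9 ± 7.86 CPM (SD, n = 4 each). The 95% interval of the log2 fold change ran from -0.051 to 0.048 around -0.0019 (adjusted p = 0.981), and after the length correction the value was -0.028 (adjusted p = 0.607). The annotation used here places another protein-coding gene model over 5964 exonic bases of CHD4. That model was not in the count tables, so its transcripts would be counted as CHD4.

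CHD3, CHD1, CHD6 and CHD7 did not pass the threshold, and their groups overlapped. CHD3 (ENSG00000170004.16, chromosome 17, 7884796 to 7912760, plus strand) was measured at 289.8, 258.9, 260.1 and 271.0 CPM in control replicates 1 to 4 and at 280.0, 265.9, 278.1 and 279.1 after A20 siRNA. CHD1 (ENSG00000153922.10, chromosome 5, 98853985 to 98929007, minus strand) was measured at 232.9, 214.5, 221.7 and 213.8 CPM in the controls and at 230.8, 224.1, 227.2 and 228.9 after A20 siRNA. Control replicate 1 was the highest of all 8 samples for both genes. The means were 270.0 ± 14.3 and 275.8 ± 6.62 CPM for CHD3 and 220.7 ± 8.85 and 227.7 ± 2.82 for CHD1 (SD, n = 4 each). The 95% interval of the log2 fold change ran from -0.034 to 0.094 for CHD3 and from -0.011 to 0.0997 for CHD1.

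CHD6 (ENSG00000124177.14, chromosome 20, 41402083 to 41618384, minus strand), studied mainly in the response to oxidative stress and DNA damage, was measured at 90.4, 81.5, 88.5 and 84.9 CPM in control replicates 1 to 4 and at 88.0, 88.3, 93.0 and 93.1 after A20 siRNA. CHD7 (ENSG00000171316.11, chromosome 8, plus strand), mutated in CHARGE syndrome, was measured at 141.5, 131.9, 139.5 and 138.8 CPM in the controls and at 143.1, 139.8, 143.8 and 143.2 after A20 siRNA. For CHD7 each A20 siRNA sample was above the control of the same number, and replicate 2 was the lowest sample of both groups. The means were 86.3 ± 3.96 and 90.6 ± 2.84 CPM for CHD6 and 137.9 ± 4.18 and 142.5 ± 1.83 for CHD7 (SD, n = 4 each). The 95% interval ran from -0.0026 to 0.13 for CHD6 and from -0.0054 to 0.098 for CHD7. The adjusted p-values of CHD1, CHD3, CHD6 and CHD7 were from 0.330 to 0.689 by edgeR's quasi-likelihood test. All 4 intervals include 0, and all overlap the 95% interval of CHD2, from 0.056 to 0.23. Differences between members were not tested.

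The samples that stood apart in their length trend also did so in the CHD transcripts. Control replicate 1 was the highest control sample for 7 of 8 tested members, and A20 siRNA replicate 2 was the lowest of its group for 6 of 8. Whether other genes of such length show the same in these samples was not tested. With both left out, a choice made after seeing the data, CHD2, CHD3 and CHD9 passed, or 3 of 8 members, where 4.59% of all tested genes were higher by that rule. With control replicate 1 alone left out CHD2 and CHD9 passed, where 4.19% of all tested genes were higher. In both of these fits the groups were apart in length trend. After the length correction no member passed, where 0.774% of all tested genes were higher. The log2 fold changes of 6 of 8 members were then above 0, and of 5 of 8 with GC content corrected as well. With no correction 51.6% of all tested genes were above 0, and their median in the 2 corrected fits was 0.00011 and 0.00068. With the length correction the members' median went from 0.046 to 0.017.

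**Figure D3:**
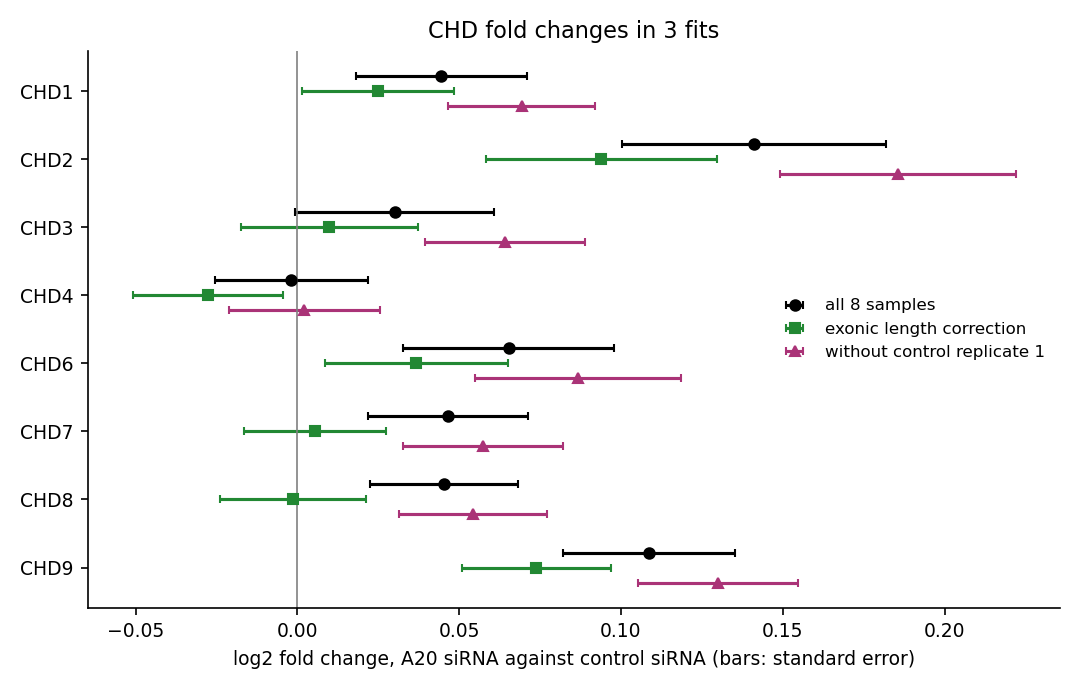
Log2 fold change, A20 siRNA against control siRNA, of the 8 tested CHD transcripts with all samples, after correction for exonic length and without control replicate 1. Bars are standard errors. The length correction moves every member towards lower values, and leaving out control replicate 1 moves every member towards higher ones.

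By the distance between log2 CPM profiles, each centred on its own mean over the 8 samples, the tested genes outside the family nearest to CHD9 were TUG1 and TASOR2. Their root mean square differences from CHD9 were 0.0091 and 0.013 on the log2 scale, where CHD9 itself departed from its mean by 0.064. Both have exonic lengths in the range of the CHD genes, 10151 and 11341 bases.

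The partners of CHD3 and CHD4 in NuRD showed no called change. None of 12 tested partners passed in either direction by edgeR's quasi-likelihood test, while 0 were higher and 2 lower at an unadjusted p under 0.05, where 8.81% and 7.37% of all tested genes were. DESeq2 also called none of the 12, where it called 0.619% of all tested genes higher and 0.91% lower. In the DESeq2 shares given here, a gene without an adjusted p, such as TNFAIP3, counted as tested and not called. Their median log2 fold change was -0.019, and 9 of the 12 values were below 0, where 51.6% of all tested genes were above 0. The smallest p of a lower partner belonged to CDK2AP1, a small subunit, at 62.6 ± 1.03 CPM in control samples and 58.3 ± 3.62 after A20 siRNA (SD, n = 4 each; log2 fold change -0.096, adjusted p = 0.199). The smallest p of a higher partner belonged to MTA1, a scaffold subunit, with a log2 fold change of 0.058 (adjusted p = 0.389), which was 0.035 without control replicate 4 and 0.078 without control replicate 1. The other partner with an unadjusted p under 0.05 was RBBP4, with a log2 fold change of -0.051 (adjusted p = 0.230). Its groups did not overlap, and 3.9% of all tested genes were apart and lower. The deacetylases HDAC1 and HDAC2 had log2 fold changes of -0.020 and -0.041 (adjusted p = 0.717 and 0.415).

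Proteins that bind CHD4 or CHD8 outside NuRD gave a similar count. Of 9 tested, none passed in either direction by edgeR's test, where 0.634% of all tested genes were higher and 0.611% lower. None passed by DESeq2, where 0.619% were higher and 0.91% lower. None had an unadjusted p under 0.05 by edgeR's test, where 8.81% of all tested genes were higher and 7.37% lower. The median log2 fold change was -0.019. The smallest p of a lower gene belonged to CBX3, a heterochromatin protein (log2 fold change -0.040, adjusted p = 0.378). Its groups were apart and lower after A20 siRNA, as for 3.9% of all tested genes. Above 0 were 2 of the 9, where 51.6% of all tested genes were. Of these 2, ADNP, which joins CHD4 to heterochromatin proteins, had the smaller p (log2 fold change 0.0095, adjusted p = 0.873).

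SNF2-type ATPases outside the CHD family had a median log2 fold change near that of the CHD genes, at 0.043 over 19 tested of 21. None passed in either direction by edgeR's test, while 4 were higher and 0 lower at an unadjusted p under 0.05, where 8.81% and 7.37% of all tested genes were. DESeq2 called HELLS higher, 1 of 19, where it called 0.619% of all tested genes higher. The smallest p belonged to SHPRH, a ubiquitin ligase of the DNA damage response, at 31.1 ± 2.21 CPM in control samples and 35.0 ± 0.662 after A20 siRNA (SD, n = 4 each; log2 fold change 0.17, adjusted p = 0.0614). Its groups were apart and higher after A20 siRNA, as for 3.71% of all tested genes. HELLS, a remodeler needed for DNA methylation, and EP400, the ATPase of an acetyltransferase complex, had log2 fold changes of 0.14 and 0.15 (adjusted p = 0.0614 and 0.0991). Among lower genes SMARCA5, the ISWI ATPase, had the smallest p (log2 fold change -0.045, adjusted p = 0.318). Its groups were apart and lower, as for 3.9% of all tested genes. The BAF ATPase SMARCA4 had 396.3 ± 6.88 and 401.0 ± 5.50 CPM (SD, n = 4 each; log2 fold change 0.016, adjusted p = 0.766). SMARCA1 and HLTF were left out of the test for low counts, SMARCA1 with at most 3 reads in a sample and HLTF with 2 to 11. These ATPases were also long, and their median exonic length was 12121 bases. That of the NuRD partners was 7378, and that of the other partners 4840. After the length correction the median log2 fold change was 0.022 for these ATPases and 0.017 for the CHD genes. It was -0.017 for the NuRD partners and -0.020 for the other partners, so the lists kept their directions. The part of length in these medians was not tested further.

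**Figure D4:**
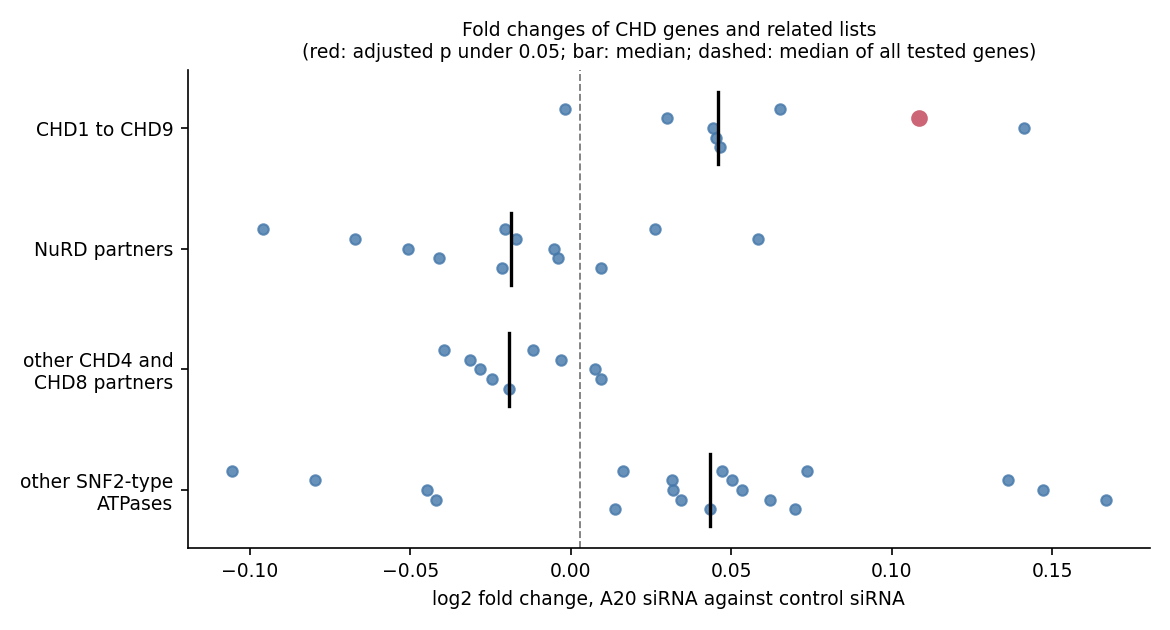
Log2 fold change, A20 siRNA against control siRNA, of each tested gene of 4 lists, with the list median as a bar and the median of all tested genes as a dashed line. CHD9 is the 1 gene with an adjusted p under 0.05, and the medians of the CHD genes and the other ATPases lie above 0 while those of both partner lists lie below.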

How the data were processed

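RNAseq samples of RKO cells were grouped by the siRNA and replicate number in the sample labels. The authors trimmed reads with Trimmomatic, mapped them to GRCh38.p7 with STAR and deposited, for 57992 genes, raw counts of reads that mapped uniquely, not normalized. Tool versions, the GENCODE release and the strand setting are not given in the sources used here, so reads of antisense genes could not be separated. Names, lengths and coordinates came from GENCODE 44, which matched 56948 genes.

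Counts were analysed in R 4.3.3 with edgeR 4.0.16. Genes were kept by filterByExpr (minimum count 10), scaled by TMM, and tested by the quasi-likelihood test without covariates, with Benjamini-Hochberg adjustment over 13412 genes and a threshold of 0.05. The F statistic gave the standard errors. Length and GC corrections removed a loess trend (span 0.5) from each sample, after which TMM was repeated. Other alternatives were RLE, other filters, DESeq2 1.42.0, limma-voom 3.58.1, a replicate block and each sample left out. The pipeline was tested on simulated data. The closing section gives the effect of the alternatives.

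Named genes were CHD1 to CHD9, TNFAIP3, of each partner list the genes that passed or else the gene of smallest p in each direction, and the 2 genes nearest to a member that passed. CHASERR, CTNNB1, HDAC1, HDAC2, RBBP4, HELLS, EP400, SMARCA4, SMARCA1 and HLTF were added after their values were seen. The members and lists were chosen with earlier results of these data known. Neither labels nor paper say whether replicates were separate cultures, so p-values cover only the spread between these samples. All replicate pairs differed by more than sampling noise (chi-square per degree of freedom 1.32 to 3.67). Depth was 21226451 to 34194273 counts per sample. Floors and counting intervals cover counting error only.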

Additional observations from a re-analysis of the deposited data

Results flagged for a closer look

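In 34 groups of 4 samples, 5 samples lay far from the rest of their group, and chance alone would mark 1.7. A sample was marked when its gap to the nearest other sample, as a share of the group's range, exceeded 0.829. A20 siRNA replicate 2 was the lowest of its group for CHD3 (gap 0.860 of the range), CHD7 (0.840) and TNFAIP3 (0.847). Control replicate 1 was the highest of its group for CHD9 (0.873), at 117.1 CPM against 109.6 to 110.6 in the other control samples. For CDK2AP1, control replicate 3 was the highest of its group (0.836).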

How the results depend on the processing

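Depth limits CHD5, which rests on 1 to 7 reads per sample. The number of CHD members called higher was 1 with all samples. It was 2 with no low-count filter and 2 with the replicate block, 0 with limma-voom, 0 under the filter of at least 10 counts per sample, and 0 after correcting for length or for length and GC. With RLE, with DESeq2, and with the block added to the length and GC correction it was 1, which was CHD9. The adjusted p-values of CHD9 in these 3 fits were 0.0499, 0.0499 and 0.0331. Of all tested genes, 0.604% to 1.95% were higher under these settings. The number of members ran from 0 to 2 with 1 sample left out, where 0.0443% to 4.19% of all genes were higher. It was 3 without control replicate 1 and A20 siRNA replicate 2, where 4.59% of all genes were higher. The stricter filter and limma-voom left CHD9 at adjusted p-values of 0.0511 and 0.0526. For other SNF2-type ATPases called higher, 0 with all samples became 3 with no filter, 3 with the block, 1 with DESeq2, 1 after correcting for length and GC, 1 when the block was added to that, 0 to 4 with 1 sample left out and 4 without both samples. Of all tested genes, 1.09% were higher with no filter, 1.95% with the block and 0.619% with DESeq2. The share was 0.804% after correcting for length and GC, 1.72% with the block added to that, and 4.59% without both samples. For NuRD partners called lower the range with 1 sample left out was 0 to 1, the 1 being CDK2AP1 without A20 siRNA replicate 1. In that fit 1.12% of all tested genes were lower. For all of these counts the cause was not tested.

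Directions turned for values near 0. CHD4 ran from -0.024 to 0.0068 with 1 sample left out. It was 0.0021, 0.00019, 0.0068 and 0.0042 without control replicates 1, 3 and 4 and A20 siRNA replicate 1, and 7.9e-05 without both samples above. CHD7 was -0.0072 with the length and GC correction and -0.0063 with the block added. CHD8 was -0.0013 with the length correction, -0.019 with length and GC, and -0.019 with the block added. ADNP was -0.00039 with the length correction.

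Neither labels nor paper say whether samples of the same replicate number were paired. Same-numbered samples correlated from -0.0098 to 0.084, and 4 of 8 samples correlated best with their own number. With the replicate block CHD2 passed (log2 fold change 0.14, adjusted p = 0.0434), and genes called over all were 212 lower and 262 higher, against 82 and 85. The length and GC correction called 159 lower and 107 higher, and DESeq2 122 and 83. TNFAIP3 stayed between -0.77 and -0.67 with 1 sample left out and received no adjusted p from DESeq2.

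With the canonical transcript length, levels in CPM per kb over all samples became 27.5 for CHD1, 5.25 for CHD2, 36.9 for CHD3, 78.3 for CHD4, 8.25 for CHD6, 12.1 for CHD7, 15.1 for CHD8 and 10.1 for CHD9, and the CHD4 share became 67.9%.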
